A study of Mus musculus with 6 samples.

Results

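The enzymes that release glucose from muscle glycogen and carry it to pyruvate and lactate were described in the ribosome-associated RNA of skeletal muscle, by comparing mice given E2 (17β-estradiol) with mice given placebo. The 10 genes were chosen by symbol from the 24062 genes counted, with earlier results of these data known. They are taken here in pathway order: Pygm, Pfkm, Aldoa, Tpi1, Gapdh, Pgk1, Pgam2, Eno3, Pkm and Ldha. The libraries came from gastrocnemius and soleus of ovariectomized female GFP-L10aEC mice, in which Cre driven by the VE-cadherin promoter switches on a GFP-tagged ribosomal protein L10a (the fsTRAP allele at Rosa26) in endothelial cells, and RNA was collected by pulling down the tagged ribosomes (TRAPseq). Mice received placebo pellets (vehicle) or E2 pellets for 4 weeks, with 3 libraries in each group and no difference of genotype between the groups. The labels give an age of 4 weeks, whereas the study's methods place the ovariectomy later than that. Each label names 2 mice, and the study's methods give more biological replicates per group than there are libraries. No source used here states whether the mice were pooled, and the spread between libraries may be partly technical.

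Glycogen phosphorylase cuts glucose units from glycogen, and the glycolytic enzymes then split each sugar and oxidize it to pyruvate, yielding ATP without oxygen. Lactate dehydrogenase turns pyruvate to lactate, which lets the pathway continue during hard contraction. Several of these steps have an isoform made mainly in muscle (Pygm, Pfkm, Pgam2 and Eno3), while Tpi1, Gapdh, Pgk1 and Ldha are made in most cells, endothelial cells included, which themselves rely largely on glycolysis.

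Depth limited every value below. Total counts ran from 84823 in vehicle replicate 3 to 451034 in vehicle replicate 2, so that a single count was worth between 2.22 and 11.8 CPM (counts scaled to the total of the library), and 28.5 to 42.9% of the counts fell on the ribosomal RNA gene Rn45s. The 10 enzymes held 2149, 2588 and 329 counts in vehicle replicates 1, 2 and 3, and 391, 785 and 560 in E2 replicates 1, 2 and 3. Vehicle replicates 1 and 2 stood apart: the Y-linked genes Uty, Kdm5d, Eif2s3y and Ddx3y (4 genes) took 40 and 63 counts there and 0 elsewhere, while the study describes female mice, so each fold change printed below that passed a threshold is also given without these libraries. That leaves vehicle replicate 3 alone against the E2 libraries, and the test then assumes that it varies as the E2 libraries do. Muscle fiber transcripts were abundant for RNA labelled as endothelial: 24 fiber markers summed to 76892 to 128491 CPM across the libraries, and 16 endothelial markers to 143 to 956 CPM. The endothelial markers Pecam1 (20, 20 and 2 counts with vehicle and 3, 7 and 10 with E2) and Cdh5 (54, 131 and 14, and 6, 37 and 75) were detected in every library, but 12 of the 16 endothelial markers had 0 counts in at least 1 library, among them Kdr with 93, 118 and 0 counts against 2, 10 and 10 (named after its values were seen). In such a pull-down, fewer cells of a type, less RNA per cell, the yield of the pull-down and carry-over of RNA from other cells cannot be told apart.

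Pgam2, Aldoa and Pygm led the pathway with vehicle, and the order of the enzymes differed between the groups. Per kilobase of the principal transcript, mean levels with vehicle were 2400 CPM per kb for Pgam2, 693 for Aldoa, 406 for Pygm, 223 for Pkm, 173 for Ldha, 157 for Eno3, 107 for Gapdh, 55.0 for Pfkm, 20.8 for Tpi1 and 11.2 for Pgk1. Of the neighbours in this order, Aldoa lay above Pygm and Pygm above Pkm without overlap between libraries, and the other neighbours overlapped. With E2 the order per kilobase was Aldoa at 558, Gapdh at 295, Pgam2 at 242, Pygm at 233, Ldha at 167, Eno3 at 144, Pkm at 141, Pfkm at 53.7, Tpi1 at 41.7 and Pgk1 at 33.4 CPM per kb. Here Pygm lay above Ldha, and Pkm above Pfkm, without overlap. By group means Gapdh stood at rank 7 with vehicle and 2 with E2, and Pgam2 at rank 1 and 3. By library, Pgam2 ranked 1, 1 and 3 in vehicle replicates 1, 2 and 3 and 2, 3 and 7 in E2 replicates 1, 2 and 3, so vehicle replicate 3 lay within the E2 range. Gapdh ranked 7, 6 and 7 with vehicle and 6, 2 and 1 with E2. Both overlapped their neighbours in each order.

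**Figure D1:**
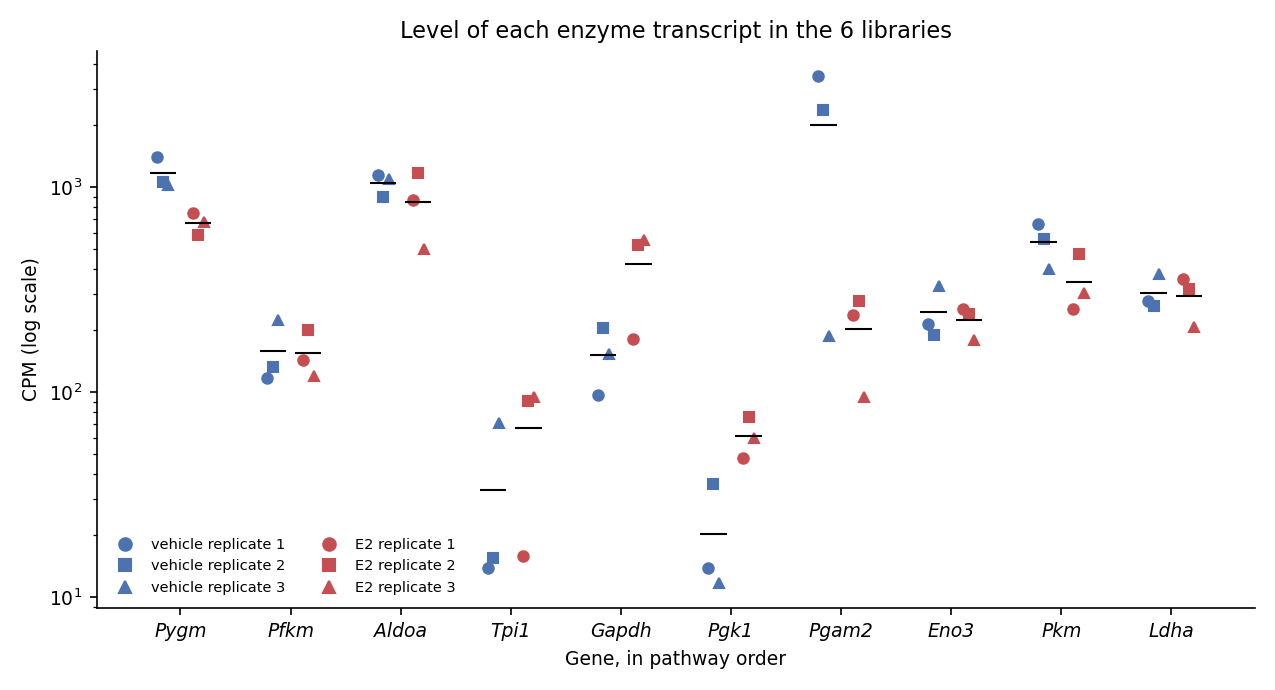
CPM (log scale) of the 10 enzyme transcripts in pathway order in each library. Blue points are vehicle, red points E2, shapes mark the replicate and black lines the group means. Pgam2 in vehicle replicates 1 and 2 stands at 3483 and 2377 CPM, above the other libraries, and Pgk1 is the gene whose E2 points all lie above its vehicle points.

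At the entry of the pathway, Pygm, the muscle glycogen phosphorylase, was lower in all E2 libraries than in any vehicle library. Its 407, 480 and 87 counts with vehicle came to 1409, 1064 and 1026 CPM, and its 94, 116 and 136 counts with E2 to 746, 584 and 677 CPM. The mean was 1166 ± 211 CPM (SD, n = 3) with vehicle and 669 ± 81.3 (n = 3) with E2. This difference did not pass the test across all genes (log2 fold change -0.66, SE 0.44, 95% interval -1.59 to 0.27, adjusted p = 0.357, the quasi-likelihood test of edgeR, Benjamini-Hochberg adjusted), and an exact two-sided permutation test of the CPM gave p = 0.1, the smallest that 3 against 3 libraries allow. Pfkm, the muscle subunit of the phosphofructokinase that commits the sugar to glycolysis, lay at 118, 133 and 224 CPM with vehicle and at 143, 201 and 119 CPM with E2. Its groups overlapped, with a log2 fold change of 0.14 (95% interval -0.79 to 1.07, edgeR adjusted p = 0.859). Aldoa, the aldolase that splits the 6-carbon sugar, measured 1149, 894 and 1096 CPM with vehicle and 866, 1169 and 497 CPM with E2. E2 replicate 2 was its highest library and E2 replicate 3 its lowest, so the groups overlapped (log2 fold change -0.23, 95% interval -1.16 to 0.71, edgeR adjusted p = 0.786).

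In the middle of the pathway, Tpi1, Gapdh and Pgk1 had higher mean levels with E2, and none of them passed the adjusted threshold with all libraries. Tpi1, the triose phosphate isomerase, was sparse: 4, 7 and 6 counts with vehicle (13.8, 15.5 and 70.7 CPM) and 2, 18 and 19 counts with E2 (15.9, 90.7 and 94.5 CPM). Vehicle replicate 3 lay with the higher E2 libraries and E2 replicate 1 with the lower vehicle libraries, so the groups overlapped. Its log2 fold change was 1.75 (SE 0.69, 95% interval 0.30 to 3.20) and its edgeR adjusted p was 0.125. Gapdh makes the dehydrogenase that oxidizes the triose phosphate and passes its electrons to NAD+. It had 28, 93 and 13 counts with vehicle (96.9, 206 and 153 CPM) and 23, 104 and 111 counts with E2 (183, 524 and 552 CPM). E2 replicates 2 and 3 were above every vehicle library, and E2 replicate 1 was below vehicle replicate 2. The mean was 152 ± 54.6 CPM with vehicle and 419.6 ± 206 CPM with E2 (SD, n = 3 each), a ratio of 2.76. The log2 fold change of 1.63 (SE 0.51, 95% interval 0.56 to 2.70) had an edgeR adjusted p of 0.0663. Pgk1, the first ATP-yielding kinase of the pathway, had 4, 16 and 1 counts with vehicle (13.8, 35.5 and 11.8 CPM) and 6, 15 and 12 counts with E2 (47.6, 75.6 and 59.7 CPM). Its lowest E2 library lay above its highest vehicle library in CPM, at a ratio of means of 2.99, but the single count of vehicle replicate 3 has an exact 95% Poisson interval of 0.298 to 65.7 CPM, and such intervals cover counting error only. Pgk1 did not pass the filter on low counts, so it has no value in the main test. Gapdh, Tpi1 and Pgk1 are also in gene lists that the study drew from these libraries, which is not independent evidence of their direction.

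The sequences upstream of the RefSeq starts are shown for Gapdh and Tpi1, the middle enzymes that have a log2 fold change in the main test. They are on the gene's strand, 5′ to 3′, from RefSeq on GRCm38.p6 (mm10). In GENCODE M21 (mm10), Gapdh spans chr6:125161715-125166467 and Tpi1 chr6:124810586-124814296, both on the minus strand. The Gapdh stretch lies before the RefSeq start at 125165773 and inside the longer GENCODE span. Capitals mark matches to the motifs searched: in Gapdh, chr6:125165774-125166023 (minus strand), 1 estrogen receptor half-site (GGTCA), and in Tpi1, chr6:124814297-124814408 (minus strand), 1 E-box (CANNTG). The Tpi1 stretch stops at its GENCODE exon and leaves out the bases down to the RefSeq start at 124814158. The whole 300-base Tpi1 window around that start holds 2 E-boxes, 1 GC box (GGGCGG) and 1 estrogen half-site. A match is a description of the letters and not a site.
Gapdh: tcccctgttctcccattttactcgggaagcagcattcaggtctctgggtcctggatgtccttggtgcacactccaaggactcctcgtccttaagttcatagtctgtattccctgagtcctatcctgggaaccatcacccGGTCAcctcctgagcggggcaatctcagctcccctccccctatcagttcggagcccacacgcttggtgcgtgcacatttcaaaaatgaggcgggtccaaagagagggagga
Tpi1: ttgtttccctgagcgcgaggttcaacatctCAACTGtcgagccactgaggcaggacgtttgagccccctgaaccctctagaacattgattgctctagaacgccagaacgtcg

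Pgam2, the muscle phosphoglycerate mutase, was the only one of the 9 enzymes tested that passed the adjusted threshold, with a lower level with E2. It had 1006, 1072 and 16 counts with vehicle (3483, 2377 and 189 CPM) and 30, 55 and 19 counts with E2 (238, 277 and 94.5 CPM). Vehicle replicates 1 and 2 were high and all other libraries low: vehicle replicate 3 lay below E2 replicates 1 and 2, so the groups overlapped. The mean was 2016 ± 1676.5 CPM (SD, n = 3) with vehicle and 203 ± 96.1 (n = 3) with E2. Its log2 fold change was -3.24 (SE 0.73, 95% interval -4.76 to -1.72, edgeR adjusted p = 0.0204), and the exact two-sided permutation test of the CPM gave p = 0.3. Without vehicle replicates 1 and 2, the libraries with Y-linked transcripts, it was 0.16 (adjusted p = 0.951, with 1 vehicle library and the spread taken from the E2 libraries). In 7 of the 14 alternatives run the call held. These were without vehicle replicate 1 (-2.60, adjusted p = 0.0438), 2 (-3.26, 0.00363) or 3 (-3.66, 1.48e-07), and with DESeq2 (0.000397), no filter (2.45e-07), RLE scaling (0.0213) and library totals only (0.0104). With limma-voom (-2.48, adjusted p = 0.0758) and a filter of at least 10 counts in every library (-3.61, 0.0570) it missed the threshold. The same held with a block on the replicate number (-2.66, edgeR adjusted p = 0.0774). Without E2 replicate 1, 2 or 3 it also missed the threshold, at -3.28, -3.27 and -2.84 (edgeR adjusted p = 0.0833, 0.108 and 0.114). The lower of vehicle replicates 1 and 2 exceeded the highest of the other libraries 8.58-fold, a gap reached or passed by 2 of the 1682 genes tested, Pgam2 and Rplp2 (named after its values were seen). Vehicle replicates 1 and 2 both lay above the other 4 libraries in 521 of the 1682 genes, or 31.0%, and among the enzymes tested in Pygm, Pgam2 and Pkm.

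The 24 muscle fiber markers summed to 128491, 99950 and 83810 CPM with vehicle and 87261, 104379 and 76892 CPM with E2. These markers differed in direction. Tnnc2, the fast troponin C (named after its values were seen), lay at 13315, 11791 and 20207 CPM against 33550, 44541 and 29750, and without it the other 23 summed to 115175, 88160 and 63603 against 53712, 59838 and 47142 CPM, highest in vehicle replicates 1 and 2 as Pgam2 was. Of the 22 markers tested, 0 passed the adjusted threshold in edgeR, and 5 were lower and 2 higher at an unadjusted p of 0.05, where 15.1% of all genes tested were lower and 10.5% higher. Myh4, the fast myosin heavy chain, had 12397, 10307 and 1127 counts with vehicle and 1478, 2003 and 2420 with E2 (log2 fold change -1.08, adjusted p = 0.148). Acta1, skeletal actin, went the other way, with 110, 198 and 95 counts against 132, 546 and 461 (1.80, adjusted p = 0.057). Without vehicle replicates 1 and 2, Myh4 was at -0.11 (edgeR adjusted p = 0.954) and Acta1 at 0.96 (0.587). Ckm, muscle creatine kinase, had 155, 202 and 57 counts against 39, 129 and 73 (-0.22, adjusted p = 0.794). The part of fiber RNA, library depth and the Y-linked libraries in the Pgam2 difference was not tested.

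**Figure D2:**
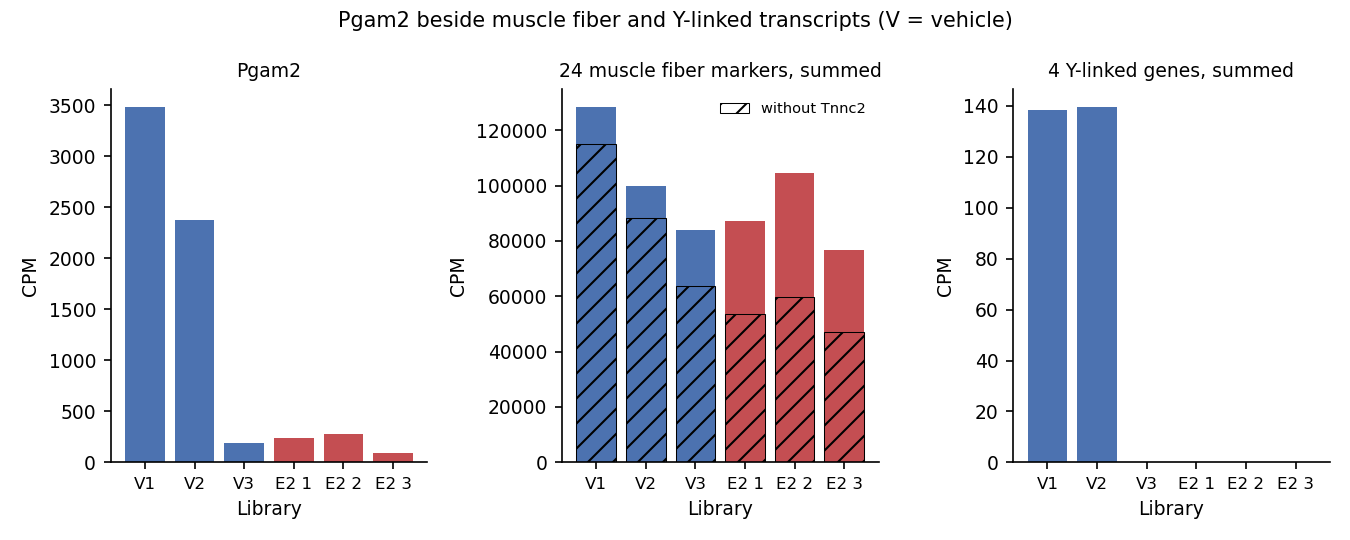
CPM of Pgam2, of 24 muscle fiber markers summed and of 4 Y-linked genes summed, as bars for the 6 libraries (blue, vehicle; red, E2), with the fiber sum without Tnnc2 hatched. Pgam2, the Y-linked genes and the hatched fiber sum (115175 and 88160 CPM) are all highest in vehicle replicates 1 and 2, while the sum of all 24 is higher in E2 replicate 2 (104379 CPM) than in vehicle replicate 2 (99950 CPM).

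The stretch upstream of Pgam2, chr11:5803797-5804046 (minus strand, GRCm38.p6), is shown because this gene had the largest fitted change of the 9 enzymes tested with all 6 libraries. It lies before the gene, which spans chr11:5801640-5803733 with a principal transcript of 840 bases. Capitals mark 5 E-boxes (CANNTG), the motif bound by myogenic factors, and 1 match to the MEF2 motif.
Pgam2: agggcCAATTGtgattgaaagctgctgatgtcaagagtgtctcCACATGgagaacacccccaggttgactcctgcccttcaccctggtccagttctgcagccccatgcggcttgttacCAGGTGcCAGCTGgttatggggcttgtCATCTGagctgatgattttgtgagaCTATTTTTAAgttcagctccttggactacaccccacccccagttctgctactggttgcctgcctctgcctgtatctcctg

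At the end of the pathway, no enzyme passed the test. Eno3, the muscle enolase, lay at 215, 191 and 330.1 CPM with vehicle and at 254, 242 and 179 CPM with E2, and the groups overlapped (log2 fold change 0.02, 95% interval -0.90 to 0.95, edgeR adjusted p = 0.983). Pkm, the pyruvate kinase that makes the last ATP, lay at 665, 559 and 401 CPM with vehicle and at 254, 473 and 303 CPM with E2. E2 replicate 2 exceeded vehicle replicate 3, and the log2 fold change was -0.55 (95% interval -1.48 to 0.38, edgeR adjusted p = 0.451). Ldha, the lactate dehydrogenase subunit found in most tissues, lay at 277, 264 and 377 CPM with vehicle and at 357, 317 and 209 CPM with E2, and the groups overlapped (log2 fold change 0.07, 95% interval -0.85 to 0.98, edgeR adjusted p = 0.935).

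Within the enzymes' own counts, the shares of Aldoa, Pgam2 and Gapdh differed between libraries. Aldoa took 15.4, 15.6 and 28.3% of the enzyme counts with vehicle and 27.9, 29.6 and 17.9% with E2. Pgam2 took 46.8, 41.4 and 4.86% of the enzyme counts with vehicle and 7.67, 7.01 and 3.39% with E2. Gapdh took 1.30, 3.59 and 3.95% with vehicle and 5.88, 13.2 and 19.8% with E2, so that its share was higher in every E2 library than in any vehicle library. Pgk1 also separated the groups, at 0.186, 0.618 and 0.304% against 1.53, 1.91 and 2.14%. Pygm did not, at 18.5 to 26.4% against 14.8 to 24.3%. A share rises when another member falls, so these values were not tested. For each Aldoa count there were 0.0843, 0.231 and 0.140 Gapdh counts with vehicle and 0.211, 0.448 and 1.11 with E2, and here vehicle replicate 2 exceeded E2 replicate 1.

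**Figure D3:**
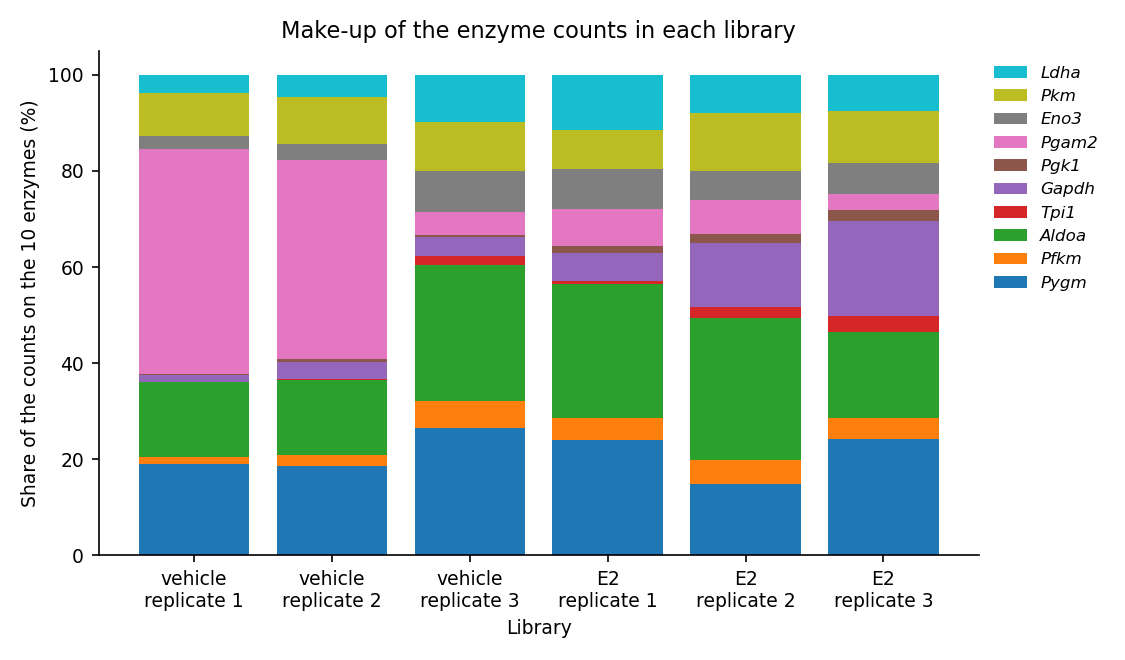
Share (%) of the counts on the 10 enzymes taken by each enzyme, stacked for each of the 6 libraries. Pgam2 fills 46.8 and 41.4% of vehicle replicates 1 and 2 and 3.39 to 7.67% of the other libraries, and Gapdh reaches 19.8% in E2 replicate 3.

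Of the 9 enzymes tested, 1 fell at an adjusted p below 0.05, where 2.97% of the 1682 genes tested were lower and 2.5% higher with E2, and 0 rose (edgeR, with 2 higher at an unadjusted p of 0.05, and 1 by DESeq2). At an unadjusted p of 0.05 or less, 1 was lower (Pgam2), against 15.1% of genes tested, and 2 were higher (Tpi1 and Gapdh), against 10.5%. Pygm alone had all E2 libraries below all vehicle libraries, a pattern held by 12.8% of genes tested, and none of the 9 had all E2 libraries above, held by 8.68%. Pgk1, untested, had the latter pattern, as did 4.39% of the 14057 genes with a count in any library. The median log2 fold change of the 9 was 0.02, with 4 below and 5 above 0, beside 0.01 over all genes tested.

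**Figure D4:**
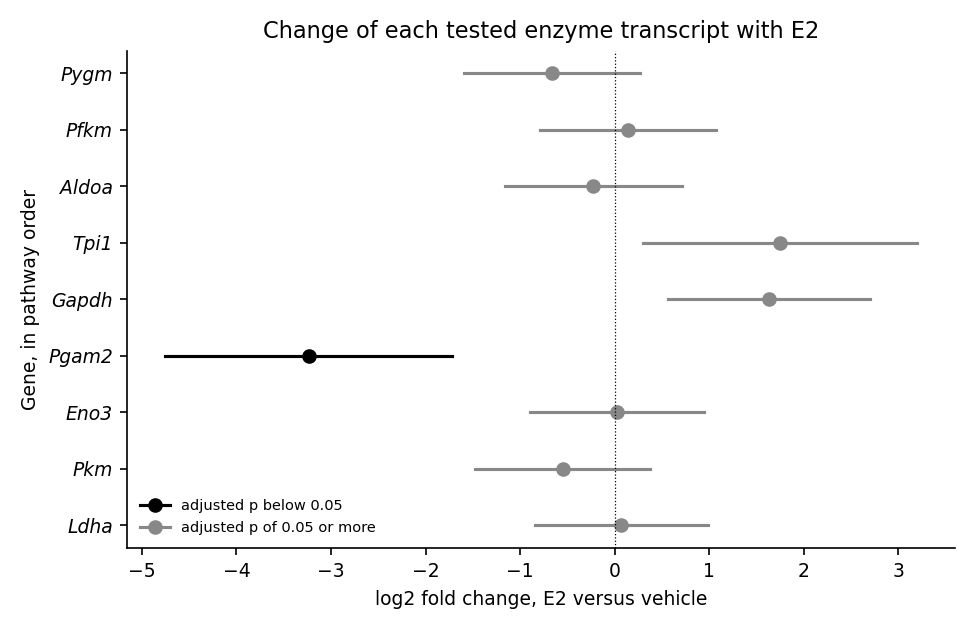
log2 fold change of E2 against vehicle for the 9 enzymes tested, with 95% intervals as lines. Pgam2 (black) lies at -3.24 and passes the adjusted p of 0.05, Tpi1 and Gapdh (grey) have intervals above 0 and do not, and the other intervals span 0.

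The middle enzymes depended on which library was left out, and Gapdh least. The log2 fold change of Gapdh stayed between 1.32 and 2.05 in the 14 alternatives run, with an unadjusted p of 0.05 or less in all 14 and an adjusted p below 0.05 in 2 of them (DESeq2, 0.0428, and without vehicle replicate 3, 0.00139). Without vehicle replicate 1 its adjusted p was 0.336, and without vehicle replicates 1 and 2 it was 0.281 (log2 fold change 1.58). Tpi1 ranged from 0.11 without vehicle replicates 1 and 2 (adjusted p = 0.973, with 1 vehicle library, of 6 Tpi1 counts, and the spread taken from the E2 libraries) to 2.5 without vehicle replicate 3 (adjusted p = 0.00206). Pgk1 was tested in 6 alternatives, at 1.20 to 2.41, and passed the adjusted threshold in 1, without vehicle replicate 3 (1.48, adjusted p = 0.0202). Without vehicle replicates 1 and 2 it was at 2.41 (edgeR adjusted p = 0.587). Without vehicle replicate 3, 477 of the 2162 genes tested in that fit were called higher and 526 lower.

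**Figure D5:**
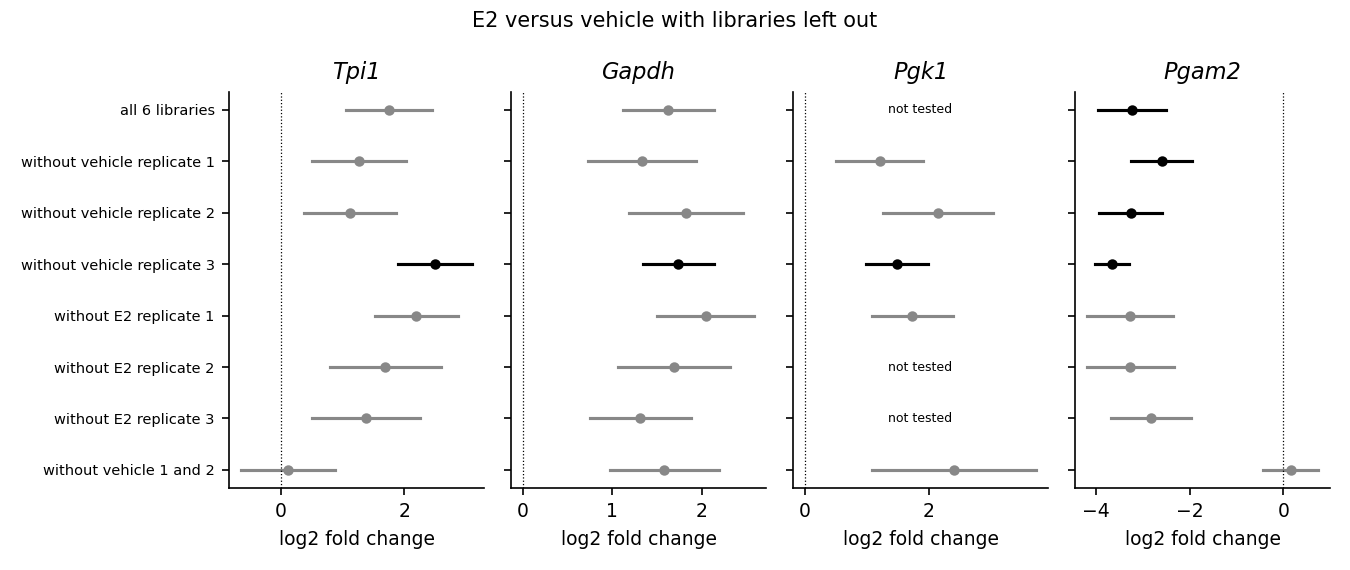
log2 fold change (E2 against vehicle) of Tpi1, Gapdh, Pgk1 and Pgam2 with all 6 libraries, with each left out in turn, and without vehicle replicates 1 and 2 (Pgk1 only where it passed the filter), with standard errors as lines and black marking an adjusted p below 0.05. Gapdh keeps 1.32 to 2.05 throughout, and Pgam2 moves from -3.24 to 0.16 without vehicle replicates 1 and 2.

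Most counts of each isoform family fell on the enzyme listed here. Aldoa took 1269 counts beside 0 on Aldoc, the brain form. Pgam2 took 2198 of 2212 mutase counts, the other 14 being on Pgam1, the form of most tissues, with 7 in each group. Pkm took 665 counts beside 1 on the liver form Pklr, and Pgk1 54 beside 0 on the testis form Pgk2. Ldha took 381 of 397 counts beside Ldhb, the heart form, and Ldhc. Gapdh took 372 counts beside 16 on Gapdhs, the sperm form. Pygm took 1320 of 1373 phosphorylase counts beside the liver and brain forms Pygl and Pygb, and Eno3 292 of 326 enolase counts beside Eno1 and Eno2. Phosphofructokinase was the most mixed: Pfkm took 77.4% of its 252 counts, between 74.1 and 86.4% in single libraries, beside Pfkl and Pfkp. Gapdh has processed copies in the genome, and no source used here states how reads that map to several places were counted. Iffo1 shares 68 exon bases with Gapdh on the opposite strand, and had 3, 7 and 1 counts with vehicle and 2, 3 and 3 with E2.

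Of the other genes of the pathway, none passed the adjusted threshold. Among 24 further glycolytic genes, 3 were tested and 6 had no count: Hk2, the muscle hexokinase, at a log2 fold change of -0.68 (edgeR adjusted p = 0.321), Gpi1 at 1.04 (0.253) and Pfkfb2 at -0.22 (0.821). Of 23 further genes of glycogen metabolism, 7 were tested, with a median log2 fold change of -0.19 and 0 called by edgeR at either threshold. They included Pgm2 at 0.34 (adjusted p = 0.673), Gaa at 0.02 (0.987), the kinase subunit Phkg1 at -0.42 (0.599), the synthase Gys1 at -0.10 (0.906), Ugp2 at -0.19 (0.833) and the phosphatase subunit Ppp1r3a at -1.02 (0.195). The 23 genes summed to 1117 to 1236 CPM with vehicle and 786 to 1103 CPM with E2, which was not tested. Of 20 genes around pyruvate and its shuttles, 7 were tested. At the unadjusted threshold, Gpd1, of the glycerol phosphate shuttle, was lower at -1.46 (edgeR adjusted p = 0.0741) and Got1, of the malate-aspartate shuttle, higher at 1.23 (0.133), while Dld (0.05), Pdk2 (-0.87), Pdk4 (-0.87), Got2 (0.03) and Mdh1 (0.77) had adjusted p of 0.259 to 0.981 in the same test. Without vehicle replicates 1 and 2, Gpd1 was at -0.37 (edgeR adjusted p = 0.865) and Got1 at 0.07 (0.976).

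Other cell types were present at low or shifting levels. The 16 endothelial markers summed to 859, 956 and 283 CPM with vehicle and 143, 383 and 662 with E2, and the 9 of smooth muscle and pericytes to 4899, 4574 and 1285 against 2033, 1602 and 950.2. Most of the latter sum was Des, desmin, which muscle fibers also express (named after its values were seen), and without it the other 8 summed to 696, 490.0 and 141 against 238, 227 and 239 CPM. Adipocyte markers summed to 256, 306 and 141 against 55.6, 116 and 139 CPM, and 2 of these markers were tested. Most of this sum with vehicle was Fabp4, at 204, 228 and 82.5 CPM against 15.9, 50.4 and 64.7 with E2. Which cells the Fabp4 counts came from was not tested. Fabp4 was called lower (log2 fold change -1.81, edgeR adjusted p = 0.0499; -0.72, adjusted p = 0.810, without vehicle replicates 1 and 2), and Cidec, named after its values were seen, was at 1.05 with 7, 7 and 5 counts against 3, 12 and 11. Fibroblast markers lay at 571 to 660 against 517 to 611 CPM, immune markers at 41.5 to 200 against 39.7 to 104, and erythrocyte markers at 24.4 to 51.9 against 7.94 to 85.6. Their part in the enzymes' values was not tested.

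The 10 enzymes together summed to 7440, 5738 and 3879 CPM with vehicle and 3105, 3954 and 2786 CPM with E2, with E2 replicate 2 above vehicle replicate 3. Without Pgam2 the sums were 3957, 3361 and 3690 against 2867, 3677 and 2691 CPM. Among genes tested that are not members, the 5 most like the summed level over the 6 libraries, by Pearson's r of log2(CPM + 1), were Fbn1 (0.998), Tnni2, the fast troponin I (0.990), Aplp2 (0.984), Tln1 (0.9752) and Ppp1r12a (0.9746). This is a description over 6 libraries whose depth differs. Over the 10 enzymes, vehicle replicate 3 resembled E2 replicates 1, 2 and 3 at r = 0.847, 0.862 and 0.768, and vehicle replicates 1 and 2 at 0.779 and 0.721, while vehicle replicates 1 and 2 resembled each other at 0.984.

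Motifs were counted on both strands in 300-base windows from 250 bases before to 50 after the RefSeq start, in 32851 windows, 17 of them of the 10 enzymes. The E-box (CANNTG) was in 14 of the 17 and in 72.3% of all windows, the GC box (GGGCGG) in 6 and 35.7%, the core letters ACGTG of the hypoxia response element in 9 and 19.6%, and the estrogen half-site GGTCA in 10 and 40.5%. The full estrogen response palindrome, GGTCA and its reverse complement with 3 bases between, was in 0 of the 17 and in 0.0700% of all windows. The MEF2 motif was in 1 of the 17, that of Pgam2, and in 3.19% of all windows. The palindrome holds the half-site, so these matches overlap, and no match says only that the letters are not in this window.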

How the data were processed

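TRAPseq libraries, 3 vehicle and 3 E2, were analysed, grouped by the labels. The authors aligned reads to mm10 by STAR (2.5.3a), then used featureCounts of Subread (1.6.0) per gene, and the deposited values are whole-number counts without normalization for 24062 genes (versions from the submitters' processing notes). The labels give a stranded kit and polyadenylated RNA and the study's methods a ribosome profiling kit, and no source used here states whether counting used strand.

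From the counts, E2 was compared with vehicle in edgeR (4.0.16, R 4.3.3) with filterByExpr, TMM scaling and the quasi-likelihood test, over all 1682 genes that passed, and p-values were Benjamini-Hochberg adjusted. A gene was called where its adjusted p was below 0.05. The looser rule took unadjusted p-values up to 0.05, if the average log2 CPM reached 0. CPM used the total of each library. A count of 0 allows 3 counts, or 6.65 to 35.4 CPM. Single genes were also tested by exact permutation, and exact Poisson intervals are at 95%. Gene positions, exons and lengths are from GENCODE M21 (mm10), and promoter sequences from RefSeq (GRCm38.p6). The fits were checked on simulated data drawn from a profile shared by all libraries, so that check does not cover the split between vehicle replicates. DESeq2 (1.42.0), limma-voom (limma 3.58.1) and other filters, scalings and left-out libraries were run as alternatives. Marker sums without Tnnc2 or Des were chosen after seeing the data. The named genes were all 10 members, the tested genes and isoforms of 3 pathway lists, defining markers, the 5 nearest patterns and genes overlapping a member on the opposite strand. Some genes of the pathway lists are not reported here. The members and all lists were chosen with earlier results of these data known.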

Additional observations from a re-analysis of the deposited data

How the results depend on the processing

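Of 125 member log2 fold changes under alternatives, 97 kept their direction and side of the adjusted threshold, 19 reversed, 6 lost the call and 3 gained it, and the cause was not tested. Depth limits all of them, since 1 count was worth up to 11.8 CPM. These choices moved the median of all genes by over 0.1: no filter on low counts (-0.14), library totals only (-0.15) and leaving out vehicle replicates 1 and 2 (0.11), which leaves 1 vehicle library, assumed to vary as the E2 libraries do.

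At the adjusted p, 50 genes were lower and 42 higher in edgeR. Lower genes numbered 132 without a filter, 0 with at least 10 counts in every library (edgeR, with 89 at the unadjusted p), 90 with library totals only, 9 with limma-voom, and 1 without vehicle replicates 1 and 2. Higher genes numbered 11 with at least 10 counts and 6 without vehicle replicates 1 and 2. Leaving out 1 library gave 2 to 526 lower and 6 to 477 higher genes, and vehicle replicate 3 gave the highest of both. At the unadjusted p, without a filter 957 were lower and 459 higher, with at least 10 counts 89 and 69, without vehicle replicates 1 and 2 55 lower, and leaving out 1 library gave 159 to 597 lower and 98 to 560 higher.

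Members lower at the adjusted p numbered 0 with at least 10 counts (Pgam2 -3.61, adjusted p = 0.0570), limma-voom (-2.48, 0.0758) and without vehicle replicates 1 and 2 (0.16), and 0 to 1 on leaving out 1 library. At the unadjusted p, 0 were lower without vehicle replicates 1 and 2. Members higher at the adjusted p numbered 1 with DESeq2 (Gapdh) and 0 to 3 on leaving out 1 library. At the unadjusted p they numbered 1 with at least 10 counts, DESeq2 and without vehicle replicates 1 and 2, and 1 to 3 on leaving out 1 library.

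Values near 0 changed sign: Pfkm at -0.0084 with at least 10 counts, -0.44 without vehicle replicates 1 and 2, and -0.083 to 0.54 on leaving out 1 library. Aldoa ranged from -0.44 to 0.051 on leaving out 1 library. Eno3 was -0.028 without a filter, -0.14 with at least 10 counts, -0.12 with library totals only, -0.46 without vehicle replicates 1 and 2, and -0.24 to 0.38 on leaving out 1 library. Ldha was -0.12 with at least 10 counts, -0.070 with library totals only, -0.28 without vehicle replicates 1 and 2, and -0.14 to 0.35 on leaving out 1 library. The mean summed CPM of the members was 8169 with vehicle and 5119 with E2 when Rn45s was left out of the totals, and 3669 with vehicle without Pgam2.

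The replicate numbers are the same in both groups. Deviations from the group means of same-numbered libraries correlated at r = -0.13, 0.02 and -0.21, and not every library correlated best with its own number. With 3 libraries in each group, this check cannot decide whether the numbers pair the libraries, and the main fit left pairing out. With the replicate block, 1 gene was lower and 7 higher at the adjusted p, 0 members were lower (Pgam2 at -2.66, adjusted p = 0.0774) and 1 was higher at the unadjusted p.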
